A study of Mus musculus with 2 samples.

Results

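The miR-17-92 cluster and its paralogs of the miR-106a-363 cluster were examined by microRNA sequencing of the mouse adrenal gland. The 9 genes described are the 6 hairpins of the host transcript Mir17hg on chromosome 14 (Mir17, Mir18, Mir19a, Mir20a, Mir19b-1 and Mir92-1) and 3 hairpins on chromosome X (Mir106a, Mir20b and Mir363), out of 2202 miRNA genes in the tables. They were chosen by name and position, and all 9 were found by matching gene identifiers to GENCODE M21. The samples were adrenal glands of female B6CASTF1/J mice aged 2 months, a first-generation hybrid strain, with no treatment named. The labels formed 1 group of 2 biological replicates, numbered as different females in the tissue description but carrying the same donor label. The design therefore held no contrast between conditions, and an exact two-sided test over 2 samples cannot go below p = 0.5.

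The miR-17-92 transcript is a polycistron, a primary RNA from which several hairpins are cut, and is a known target of the transcription factor Myc. Each hairpin gives a mature miRNA of either of its arms (5p or 3p), and the seed, bases 2 to 8 of the mature miRNA, sets much of its pairing with target mRNAs. The cluster is known for promoting proliferation and survival, in lymphoid cells above all, and mice without it die around birth with small lungs and a block in B cell development. The chromosome X cluster arose by duplication and carries miRNAs with the same seeds. A further paralogous cluster lies in an intron of the replication gene Mcm7.

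The mature sequences are shown because the seeds define the groups compared here, and because near-identical members limit what counts per gene can show. They are RefSeq sequences (GRCm38.p6, found for 9 of 9 genes), written 5′ to 3′ with the seed in capitals, each for the arm usually taken as the main product. The first set holds the miR-17 seed.
miR-17-5p: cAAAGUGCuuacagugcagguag
miR-20a-5p: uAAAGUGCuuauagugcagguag
miR-106a-5p: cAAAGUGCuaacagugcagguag
miR-20b-5p: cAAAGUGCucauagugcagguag
The other members form 3 groups, the miR-18 seed, the miR-19 seed with 2 members and the miR-92 seed with 2 members.
miR-18a-5p: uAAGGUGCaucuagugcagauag
miR-19a-3p: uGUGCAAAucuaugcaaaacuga
miR-19b-3p, from Mir19b-1: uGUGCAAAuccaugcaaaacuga
miR-92a-3p, from Mir92-1: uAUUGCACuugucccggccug
miR-363-3p: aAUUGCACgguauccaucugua

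With positions counted from 1 at the 5′ end, miR-17-5p and miR-106a-5p differ by U10A alone (base of the first named, position, base of the second). miR-17-5p and miR-20a-5p differ by C1U and C12U, and miR-19a-3p and miR-19b-3p by U11C alone. The mature miRNAs of Mir19b-1 and Mir92-1 are also made by Mir19b-2 and Mir92-2 on chromosome X, so a read of the annotated mature sequence has 2 possible origins. The hairpins of Mir92-1 and Mir92-2 share a stretch of 22 bases around the 21-base mature miRNA, with 1 base more before it and none after it. Those of Mir19b-1 and Mir19b-2 share 25 bases around a mature miRNA of 23, with 2 bases before it and none after it. Reads aligned to several places, 28.8% and 25.3% of all reads in replicates 1 and 2, were not assigned to genes. The counts of Mir19b-1 and Mir92-1 therefore hold only reads told apart by other bases, and do not measure miR-19b or miR-92a as a whole.

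The 6 chromosome 14 hairpins span 836 bases (mm10, plus strand, 115043671 to 115044506) and all lie within the exon of Mir17hg that runs from 115043271 to 115046727. The gaps between neighbouring hairpins are 35 to 96 bases. The chromosome X cluster spans 875 bases on the minus strand (52741693 to 52742567) and holds 6 hairpins, the 3 members and Mir18b, Mir19b-2 and Mir92-2. Mir106a overlaps the noncoding gene Kis2 by 5 bases, while no other transcript outside the miRNA genes overlaps Mir20b or Mir363 on their strand. The Mir17 hairpin (chromosome 14, 115043671 to 115043754) is shown with both annotated arms in capitals, since counting was per hairpin and did not separate the arms.
Mir17: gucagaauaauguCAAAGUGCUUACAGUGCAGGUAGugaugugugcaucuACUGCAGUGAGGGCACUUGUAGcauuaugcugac

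The deposited values are read counts per hairpin gene on the strand of the gene, which totalled 2839732 in replicate 1 and 2280028 in replicate 2. Levels are given as counts scaled to a total of 1000000 gene counts (CPM), with the mean ± SD over the 2 replicates. A count was worth 0.352 and 0.439 CPM, and the level that a gene without counts may still have was set at 3 counts, which is 1.06 and 1.32 CPM. Markers of the adrenal medulla were present, with the neuroendocrine genes Mir375, Mir7-1 and Mir7b summing to 42735 and 40072 CPM in replicates 1 and 2. Of the other lists, 3 of 3 red cell genes were detected (10 or more counts in both libraries) and summed to 643 and 14488 CPM. The 8 muscle genes summed to 953 and 4.39 CPM, none was detected in both libraries, and Mir133a-1 and Mir133a-2 were at 0. The 4 white cell genes summed to 1331 and 1051 CPM, endothelial Mir126a had 43203 and 59463 CPM, and the liver gene Mir122 had 3721 and 2358 CPM. In tissue, fewer cells of a type and less RNA per cell cannot be told apart.

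The 9 genes together held 0.374% of gene counts in replicate 1 (0.367 to 0.381, 95% Clopper-Pearson interval) and, in replicate 2, 0.539% (0.530 to 0.549), or 0.457% ± 0.117 (SD, n = 2). Of these genes, 7 of 9 were detected, beside 15.5% of all 2202 genes. Nearly all of the counts came from chromosome 14. Its 6 hairpins had 10554 and 12232 counts in replicates 1 and 2, while the 3 on chromosome X had 75 and 63.

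Mir17, whose product represses cell cycle inhibitors and components of TGF-beta signalling, had 4915 counts in replicate 1 and 6461 in replicate 2. This gave 1731 and 2834 CPM (2282 ± 779.9), rank 56 of all miRNA genes by mean CPM. Mir92-1, a source of miR-92a, which is known to restrain vessel growth in endothelial cells, followed with 3399 and 3480 counts, or 1197 and 1526 CPM (1362 ± 233, rank 69). Mir20a, which shares the seed of miR-17, had 1879 and 2062 counts, or 662 and 904 CPM (783 ± 172, rank 94). Mir18 makes miR-18a, known to repress the glucocorticoid receptor in rat brain, and had 357 and 227 counts, or 126 and 99.6 CPM (113 ± 18.5, rank 182). The ranges of these 4 genes over the 2 replicates did not overlap, and the order Mir17, Mir92-1, Mir20a, Mir18 was the same in both libraries. Since the assigned reads of Mir92-1 are a part of miR-92a, its place in the order holds for assigned reads.

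**Figure D1:**
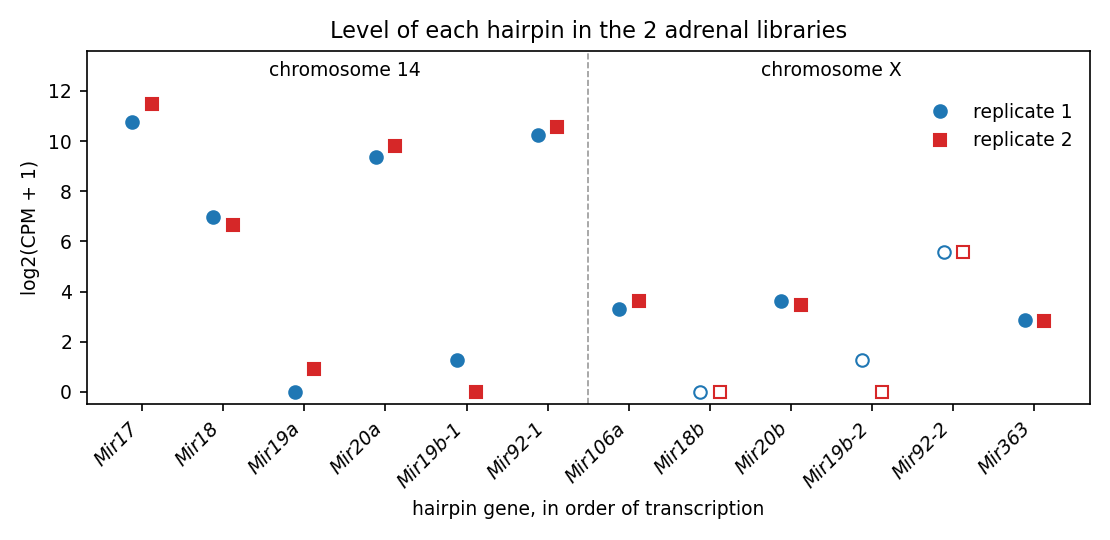
Level of each hairpin as log2(CPM + 1) on the vertical axis, with hairpins in order of transcription and the 2 replicates side by side. Filled symbols are the 9 genes and open symbols the other 3 hairpins of the chromosome X cluster. Mir17, Mir18, Mir20a and Mir92-1 stand high, Mir19a and Mir19b-1 lie at or near 0, and every chromosome X hairpin lies below Mir18.

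Genes cut from the same transcript thus had unequal counts of assigned reads. Mir17 had 1.45 times the counts of Mir92-1 in replicate 1 (95% interval of the ratio 1.38 to 1.51) and 1.86 times in replicate 2 (1.78 to 1.94). Against Mir20a the ratio was 2.62 (2.48 to 2.76) and 3.13 (2.98 to 3.29). Against Mir18 it was 13.8 (12.4 to 15.4) and 28.5 (24.9 to 32.6). For all 3 pairs the intervals of the libraries did not overlap, and replicate 2 had the higher ratio. Per base of hairpin the ratios were 1.38 and 1.77 to Mir92-1, 3.33 and 3.99 to Mir20a, and 15.7 and 32.5 to Mir18, in replicates 1 and 2. Dividing by length thus kept the order of these 4 genes. Reads that also align to Mir92-2 are missing from Mir92-1, so the ratios to Mir92-1 hold for assigned reads only. Intervals and floors cover counting error of reads within a library only. No molecular identifiers are stated, so read counts may not equal counts of molecules.

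The miR-19 hairpins had the lowest assigned counts of the chromosome 14 cluster, and Mir19b-1 lacks the reads that also align to Mir19b-2. miR-19 is known as a main driver of lymphoma growth within the cluster. Mir19a had 0 counts in replicate 1 and 2 in replicate 2, and Mir19b-1 had 4 in replicate 1 and 0 in replicate 2. In replicate 1 Mir17 was at least 1638-fold higher than Mir19a (against the floor of 3 counts in that library), and in replicate 2 the ratio was 3230.5-fold (894 to 26681) on 2 counts. Even Mir18 was at least 119-fold higher than Mir19a in replicate 1, and 114-fold (31.1 to 943) in replicate 2. Mir19a lies between Mir18 and Mir20a, 53 bases from the first and 75 from the second.
The Mir19a hairpin (chromosome 14, 115044000 to 115044081, plus strand) has a single annotated arm, in capitals.
Mir19a: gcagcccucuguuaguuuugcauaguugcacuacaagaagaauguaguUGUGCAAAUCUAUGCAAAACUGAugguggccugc

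No other annotated hairpin makes the mature miRNA of Mir19a, so it shares no mature sequence as Mir19b-1 does. Its nearest relative, miR-19b-3p, differs at 1 base, as does that of miR-17-5p, which is miR-106a-5p. The part of reads that could not be told apart from miR-19b-3p was not tested. The mature miR-19a-3p has 34.8% G and C, the lowest of the 9 mature sequences. Others are 47.8% in miR-17-5p, 43.5% in miR-18a-5p, and 39.1% in miR-20a-5p and in miR-19b-3p. The part of base composition in these counts was not tested.

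On chromosome X, Mir106a had 25 and 26 counts in replicates 1 and 2, or 8.80 and 11.4 CPM (10.1 ± 1.84). Mir20b, also with the miR-17 seed, had 32 and 23 counts, or 11.3 and 10.1 CPM (10.7 ± 0.835). Mir363, with the miR-92 seed, had 18 and 14 counts, or 6.34 and 6.14 CPM (6.24 ± 0.140). These genes ranked between 308 and 329 by mean CPM, and their order could not be told, since the 95% interval of every pairwise ratio of counts included 1 in both libraries.

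Set against the paralog of the same seed, Mir17 had 197 times the counts of Mir106a in replicate 1 (133 to 304) and 249 times in replicate 2 (169 to 381). Mir20a had 58.7 times those of Mir20b (41.4 to 86.1) and 89.7 times (59.6 to 142). Mir92-1 had 189 times those of Mir363 (119 to 319) and 249 times (148 to 455). Per hairpin base the ratios were 152 and 192 for Mir17, 43.9 and 67.0 for Mir20a, and 177 and 233 for Mir92-1. The 6 chromosome 14 hairpins together exceeded the 3 chromosome X genes 141-fold (112 to 179) and 194-fold (152 to 253) in assigned reads. That comparison left out the other 3 hairpins of the chromosome X cluster. These had 138 and 106 counts together, more than the 75 and 63 of the 3 members. Among them, Mir18b had 0 counts in both libraries and Mir19b-2 had 4 and 0. Mir92-2 had 134 and 106 counts (46.8 ± 0.493 CPM), above all 3 of the members on that chromosome in both libraries, again for assigned reads only.

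**Figure D2:**
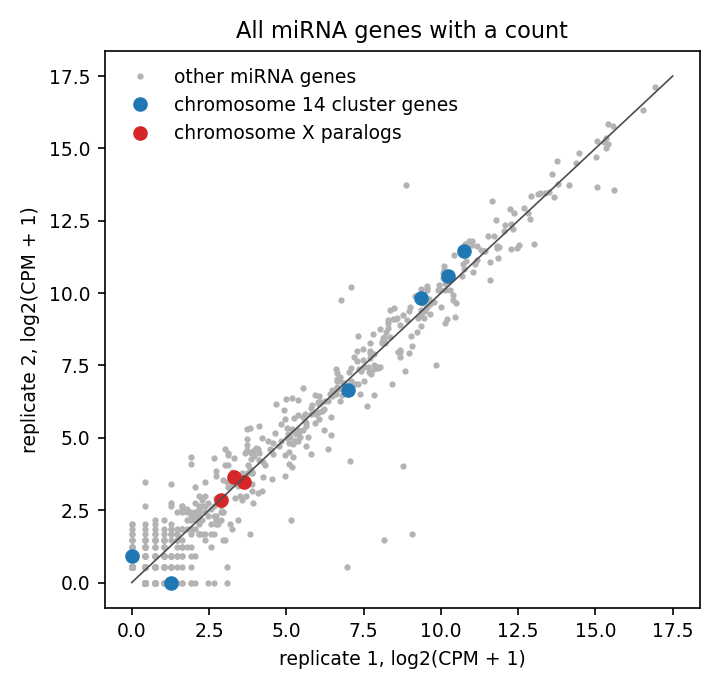
Level of each of the 739 miRNA genes with a count, as log2(CPM + 1) in replicate 1 (horizontal) and replicate 2 (vertical), with the line of equal levels. Mir17, Mir20a and Mir92-1 lie just above the line at high levels, Mir18 just below it, the 3 chromosome X paralogs close to it at low levels, and Mir19a and Mir19b-1 on or near the axes.

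By seed, the miR-17 group (Mir17, Mir20a, Mir106a and Mir20b) held 64.5% of the counts of the 9 genes in replicate 1 (63.5 to 65.4, 95% interval) and 69.7% of those in replicate 2 (68.9 to 70.5). The miR-92 group (Mir92-1 and Mir363) held 32.1% (31.3 to 33.0) and 28.4% (27.6 to 29.2). Mir18 held 3.36% (3.02 to 3.72) and 1.85% (1.62 to 2.10), and the miR-19 group 0.0376% (0.0103 to 0.0963) and 0.0163% (0.00197 to 0.0587). The shares of the first 3 groups differed between the libraries beyond counting error, but their order was the same in both. All these shares are of assigned reads. Mir92-1 and Mir19b-1 lack the reads that also align to Mir92-2 and Mir19b-2. The shares of the miR-92 and miR-19 groups therefore do not measure the mature miRNAs with those seeds. Counts also pool both arms of a hairpin, and the seed named is that of the arm usually taken as the main product. So the shares of the miR-17 and miR-18 groups do not measure those seeds alone either.

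**Figure D3:**
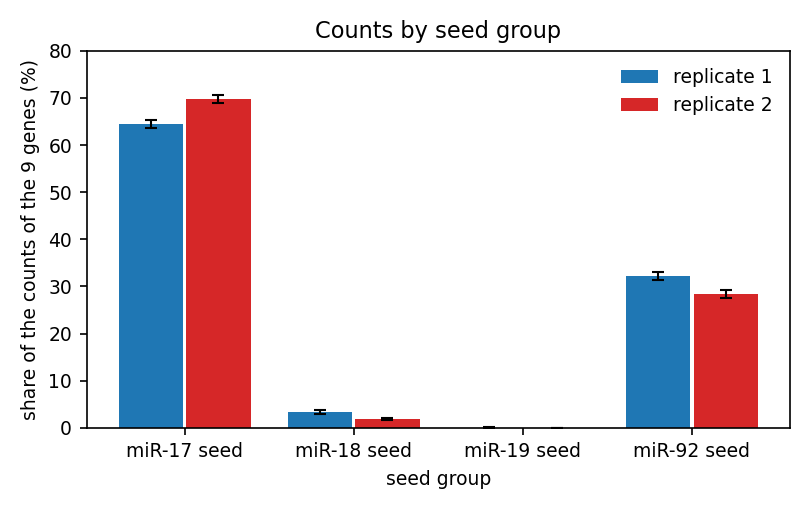
Share of the assigned counts of the 9 genes held by each seed group, in percent, for replicate 1 and replicate 2. Reads aligned to several places are not included, and the arms of a hairpin are counted together. Error bars are 95% Clopper-Pearson intervals. The miR-17 seed group holds 64.5% and 69.7%, the miR-92 group 32.1% and 28.4%, the miR-18 group 3.36% and 1.85%, and the miR-19 group is not visible at this scale.

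Other genes carry the same seeds. Of all assigned counts of the 7 genes with the miR-17 seed, the 4 members held 45.8% in replicate 1 and 46.3% in replicate 2. The rest belonged to Mir93 and Mir106b of the Mcm7 cluster, while Mir6383 was at 0 in both. Of the 7 genes with the miR-92 seed, Mir92-1 and Mir363 held 78.4% and 79.9% of the counts. The next were Mir25 (230.2 ± 31.2 CPM), Mir32 (48.6 ± 5.03 CPM), Mir92-2 and Mir92b (33.1 ± 1.53 CPM), and Mir367 was at 0 in both libraries. Reads that align to both Mir92-1 and Mir92-2 are missing here, so these shares and this order hold for assigned reads only.

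The 9 genes had 1.22 times the counts of the 3 Mcm7 hairpins in replicate 1 (1.19 to 1.26) and 1.17 times in replicate 2 (1.14 to 1.20). Mir17 stood below Mir93, with 4915 counts against 5824 in replicate 1 and 6461 against 8123 in replicate 2. Mir20a had 1879 counts against 2298 of Mir106b in replicate 1, but 2062 against 1817 in replicate 2, so the order of this pair turned between the libraries. Per hairpin base Mir20a stood below Mir106b in both libraries, with ratios of 0.627 and 0.870. That order rests on the annotated hairpin lengths of 107 and 82 bases, and does not settle the order of the counts.

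Agreement between the replicates was compared gene by gene, over the 369 genes whose counts averaged 10 or more, by an exact two-sided binomial test. It sets these libraries against each other and allows for counting error alone. A gene passed at an adjusted p under 0.05 (Benjamini-Hochberg) and a difference of at least 2-fold. Of the 9 genes, 7 could be tested and 0 passed, beside 18.7% of all genes tested. By adjusted p alone 4 of the 7 passed, beside 62.6% of all genes, 1 as higher in replicate 1 (26.8% of all genes) and 3 as higher in replicate 2 (35.8%). At an unadjusted p under 0.05 it was also 4. The sizes of the log2 differences ran from 0.05 to 0.71 over the 7 genes, with a median of 0.35, beside 0.45 over all genes tested.

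The ratio of replicate 1 to replicate 2 was 0.611 for Mir17 (95% interval 0.588 to 0.634, adjusted p = 2.25e-150 by the exact binomial test). It was 0.732 for Mir20a (0.687 to 0.779) and 0.784 for Mir92-1 (0.748 to 0.822), with adjusted p = 4.80e-22 and 3.15e-23 by the same exact test. These 3 genes of the transcript were lower in replicate 1 by less than 2-fold. Mir18, from the same transcript, lay on the other side at 1.26 (1.07 to 1.498, adjusted p = 0.0111 by the exact binomial test). The 3 chromosome X genes rest on 14 to 32 counts per library. Mir106a had a ratio of 0.772 (0.428 to 1.39), Mir20b of 1.12 (0.634 to 2.00) and Mir363 of 1.03 (0.485 to 2.24), so differences within these intervals were not detectable at this depth. In the Mcm7 cluster, Mir93 had a ratio of 0.576 (0.557 to 0.595), Mir25 of 0.825 (0.734 to 0.927) and Mir106b of 1.02 (0.954 to 1.08).

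The red cell genes Mir451a and Mir144 were lower in the same library as Mir17, Mir20a and Mir92-1, with ratios of replicate 1 to replicate 2 of 0.0346 and 0.123. Mir486, on the same list, had a ratio of 1.13. Mir126a had a ratio of 0.727. On the white cell list, Mir142 had a ratio of 0.983, Mir155 of 0.930, Mir150 of 1.41 and Mir223 of 7.57. On the muscle list Mir206, Mir208b and Mir499 passed as higher in replicate 1, and the other 5 genes were too low to test. With the red cell and muscle genes left out of the totals, the ratio of Mir17 was 0.603 and that of Mir18 1.25. That removes those genes from the scaling only, and the part of blood or other cells in the counts of the 9 genes was not tested.

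**Figure D4:**
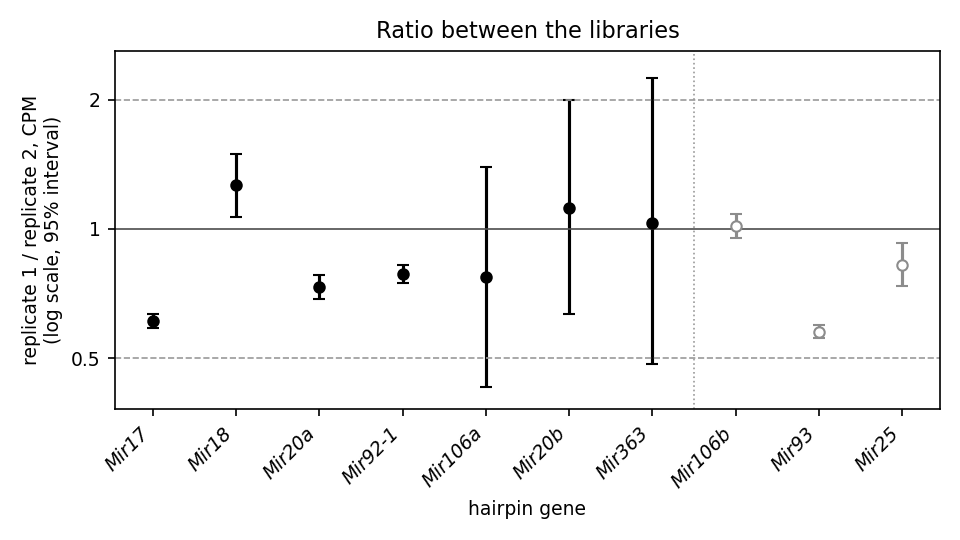
Ratio of CPM in replicate 1 to replicate 2 on a log axis, with exact 95% intervals, for the 7 tested genes (filled) and the 3 Mcm7 cluster genes (open). Dashed lines mark 2-fold in either direction. No point lies beyond them, Mir17 at 0.611 is the farthest of the 7 from equality, and the intervals of Mir106a, Mir20b and Mir363 span 1.

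Outside these clusters and seeds, the genes whose levels were most like those of Mir17, by distance over log2(CPM + 1) in the 2 samples, were Mir34a (distance 0.24), Mir324 (0.31) and Mir671 (0.35). Those most like Mir92-1 were Mir708 (0.16), Mir15b (0.17) and Mir337 (0.18). With 2 samples this likeness rests on level and on 1 ratio. The unstranded counts of all 9 genes equalled their sense counts in both libraries, and their antisense counts were 0.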

How the data were processed

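MicroRNA libraries from total RNA of 2 adrenal gland samples were used. The authors deposited raw read counts per miRNA gene, not normalized, without regard to strand and on each strand; the assembly (mm10) and annotation (GENCODE M21) are given in the deposited sample information. The aligner, counter and versions are not given in the sources used here. The sense column was used, as it had the larger total of the stranded columns. The 4 leading rows that name no gene were left out of totals: with the sense column, unmapped reads were 29.8% and 39.7% of reads in replicates 1 and 2, reads aligned to several places 28.8% and 25.3%, reads outside genes 10.8% and 8.60%, and ambiguous reads 8.62e-05% and 0%. Gene counts were 30.6% and 26.3% of reads.

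CPM, exact binomial tests, Clopper-Pearson 95% intervals and ratio intervals were computed with scipy 1.17.1. Alternatives used edgeR 4.0.16 (TMM), DESeq2 1.42.0 (size factors only), unstranded counts, other filters and denominators. With 1 group no model contrast could be fitted. The binomial procedure was tested on simulated counts with known folds and counting error alone. That simulation does not cover other differences between libraries. The members and lists were chosen with earlier results of these data known. Genes named were the 9 members, the other hairpins of the chromosome X and Mcm7 clusters, genes with a member's seed, the 3 genes nearest to Mir17 and to Mir92-1, and cell type markers. Sequences are from RefSeq. Counts were also compared per hairpin base, and whether reads of short RNA scale with hairpin length was not tested. Replicates rest on the tissue labels; if these are not separate animals, the SDs measure technical spread.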

Additional observations from a re-analysis of the deposited data

How the results depend on the processing

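The 9 genes held 0.128% of all reads and 0.670% of gene counts without let-7, beside 0.457% of gene counts. Unstranded counts and a filter on low counts moved the last share by less than the SD. So did totals without red cell and muscle genes (0.461%), a setting chosen after seeing the data. Replicates 1 and 2 alone gave 0.374% and 0.539%. With 2 replicates such a shift is below the SD whatever the data, so it shows nothing about stability. At 100 counts in both libraries 4 genes were detected. No member passed the 2-fold rule under TMM or median-of-ratios scaling, unstranded counts or other filters, and 4 passed by adjusted p alone. Chromosome 14 held 98.3% of the counts with the other 3 X hairpins added and 99.1% without hairpins that share a mature miRNA. That last setting left the miR-17 seed at 96.0%, miR-18 at 3.76%, miR-19 at 0.0113% and miR-92 at 0.204%, since it removes Mir92-1 and Mir19b-1. Adding the X hairpins put the miR-19 seed at 0.0452%. The ratio of Mir363 was 0.993 with unstranded counts, on the other side of 1, and the other ratios kept their direction. Mir106a and Mir20b exchanged ranks per hairpin base and in replicate 2 alone, as did Mir19a and Mir19b-1 in replicate 2 alone. No paired analysis was possible because there is 1 group. Leaving out a replicate leaves no comparison of libraries. Depth limits the chromosome X genes and the miR-19 hairpins, at 0 to 32 counts.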

Other observations

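Low counts beside an abundant neighbour were counted after the values of Mir19a had been seen. Of 62 miRNA genes within 1000 bases, on the same strand, of a gene with at least 1000 counts in both libraries, 4 had fewer than 10 counts in both (6.45%). They were Mir19a, whose values prompted the count, Mir19b-1, Mir453 and Gm27320. For 2 of them annotated mature miRNAs were found and none is made by another hairpin. Mir19b-1 shares its mature miRNA with Mir19b-2. Genes that themselves had at least 1000 counts were not left out of the 62. Of all 2202 miRNA genes, 1463 had 0 counts in both libraries, a stricter threshold than fewer than 10, so the 2 shares cannot be compared.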
